A study of Danio rerio with 8 samples.

Results

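The comparison set 2 libraries of sorted EGFP positive cells that were sequenced in the first run, A_1 and Q_1, against 2 libraries of whole embryos, A_unsorted and Q_unsorted, which are 4 of the 8 libraries of the series. They were taken because both sides went into cDNA synthesis with the same volume of RNA, 9.5 μl, and 11 amplification cycles. The RNA concentration was not equal, being lowest in A_1, higher in Q_1 and highest in the embryos, so the mass of RNA differed between the sides and between A_1 and Q_1. All material came from zebrafish of the Tg(fli1a:EGFP) line, in which the promoter of the transcription factor gene fli1a drives a green fluorescent protein. A_1 and Q_1 each hold 20000 sorted cells, recorded at 3 days, and A_unsorted and Q_unsorted each hold 1 undissociated embryo, recorded at 5 days. In each pair the library whose name starts with A was purified with the RNAqueous micro kit and the one with Q with the RNeasy plus micro kit, so the 2 libraries of a group also differ in kit. The sorted cells came from 1 pool of fish after trypsin dissociation, a scatter gate for live single cells and a gate for EGFP, so the spread between A_1 and Q_1 may be technical, while that between the embryos also includes 2 individuals. Sorted cells from the same pool, also recorded at 3 days and sequenced in the second run as A_2 and Q_2, were amplified for 13 cycles from 6 μl of RNA and are used here only to ask which of its differences from the embryos were also found at equal cycles. Cycles and RNA volume were equal in the main comparison, but RNA mass, dissociation and sorting, age, sequencing run and the pooling of fish changed together with the group and cannot be told apart.

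The fli1a promoter is active in endothelial cells, which line blood and lymph vessels, and also in neural crest derived cells of the jaw cartilage and in mesenchyme, so the EGFP gate collects several cell types. Immediate early genes such as those of the FOS and JUN families are transcribed within minutes of a disturbance of the cell, and heat shock genes code for chaperones that are induced by protein damage; both groups are known to respond to enzymatic dissociation. A whole embryo adds the tissues that the gate should leave out, among them muscle, eye, brain, skin, pancreas, liver and gut. In such bulk samples, fewer cells of a type and less RNA per cell cannot be told apart.

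Each library held 10763174 to 19537939 reads counted on genes, and 3 reads, the smallest count read as detection here, corresponded to 0.154 to 0.279 CPM (counts scaled to the gene reads of a library). Since molecules were not tagged, intervals and floors reflect the counting of reads alone. The run 1 libraries stood apart in 1 respect. The cDNA protocol keeps no strand, and in the 6 other libraries at most 1 gene with 100 or more reads lay over 20 points from an even split between the strand columns, but in A_1 and Q_1 150 of 10361 and 99 of 9762 such genes did. FLI1 was among them, with 80.2% and 73.4% of its reads in the first strand column in A_1 and Q_1 and 51.8% and 52.9% in the embryos. Reads that overlap more than 1 gene are left out of the count that ignores strand, and for some genes the share left out also differed between run 1 and the other libraries. Where either measure touches a named gene, the strand columns are given beside it, and their part in the result was not tested otherwise.

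At equal cycles, 8670 of 20254 genes tested (42.8%) differed between sorted cells and embryos at an adjusted p under 0.05 (edgeR quasi-likelihood test with Benjamini-Hochberg adjustment, n = 2 against 2). Of all genes tested, 17.3% were higher in sorted cells (3511 genes) and 25.5% were lower (5159 genes), with a median log2 fold change of -0.06. The embryos were sequenced in the same run as A_2 and Q_2 and in another run than A_1 and Q_1, so the comparisons of run 1 and run 2 with embryos differ in sequencing run as well as in cycles and RNA volume, and these cannot be told apart. In the second run 11045 of 21377 genes passed (51.7%), 23.5% higher and 28.2% lower. Of the 5016 genes higher in run 2, 2512 (50.1%) were also called higher at equal cycles, 2271 were tested without passing, 218 had too few reads and 15 were called lower. Of the 6029 genes lower in run 2, 4393 (72.9%) were also called lower, 1404 did not pass, 205 were not tested and 27 were called higher. Seen from run 1, the shared calls made up 71.5% of its higher and 85.2% of its lower genes. The same 2 embryos stand on the other side of both comparisons, so these overlaps are counts and not independent evidence.

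A gene that passed in run 2 and not at equal cycles need not differ between the runs, and the sorted runs were therefore also compared directly, with kit as a covariate. That test called 2149 of 19639 genes, 6.7% higher in run 1 and 4.24% lower, 10.9% in all. Among the 2271 genes that were higher in run 2 only, 345 (15.2%) were lower in run 1 than in run 2. Among the 1404 that were lower in run 2 only, 1262 could be tested between the runs and 427 of these (33.8%) were higher in run 1. For the genes called in both, the shares were 5.25% of 2512 higher and 6.46% of 3284 tested lower genes. Because these groups were formed from the same run 1 and run 2 values, the shares are a description. Without A_1 2299 and without A_unsorted 2156 genes were higher at equal cycles, and run 2 without A_2 had 5572 calls. The direct comparison moved with its settings, from 331 calls without A_2 to 4867 without Q_1, and DESeq2 called 1041 genes.

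The gene whose promoter drives the reporter was higher in both sorted libraries than in both embryos. FLI1 (ENSDARG00000054632, the fli1a gene, a transcription factor of the vascular lineage) measured 363 and 398 CPM in A_1 and Q_1 against 30.7 and 24.8 CPM in A_unsorted and Q_unsorted. The groups lay far apart (log2 fold change 4.0, SE 0.46, edgeR adjusted p = 4.77e-05). On the strand that held fewer of its run 1 reads the log2 fold change was 3.00, and on the other 4.51, both past the threshold. Run 2 gave 331 and 288 CPM and a log2 fold change of 3.45, and the direct test between the sorted runs did not pass (edgeR adjusted p = 0.478). Its paralogue fli1rs (ENSDARG00000040080, fli1b) was lower in level in all libraries, with 16.9 and 21.3 CPM against 3.78 and 5.73 CPM, and was also higher in sorted cells (log2 fold change 2.18, SE 0.42, edgeR adjusted p = 0.00125). The EGFP transcript itself was not analysed here.

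Of 44 endothelial genes tested, out of 45 in the list, 34 were higher in sorted cells at equal cycles, 1 was lower and 9 did not pass, against 17.3% higher among all genes tested. The median log2 fold change was 1.79 and the summed level was 1864 and 2213 CPM in A_1 and Q_1 against 889 and 674 CPM in A_unsorted and Q_unsorted. Among receptors and junction genes, kdrl (a VEGF receptor gene) measured 32.2 and 46.5 CPM in A_1 and Q_1 against 18.2 and 12.2 CPM in A_unsorted and Q_unsorted with a log2 fold change of 1.59, cdh5 (VE-cadherin) 1.45 and pecam1a 1.04. EGFL7, which codes for a secreted endothelial factor, rose more, from 11.3 and 9.37 CPM in the embryos to 73.2 and 89.9 CPM (log2 fold change 3.19, SE 0.37, edgeR adjusted p = 5.15e-05). Fenestrated vessels are marked by plvapb, which measured 118 and 139 CPM against 42.8 and 32.7 CPM (log2 fold change 1.99, SE 0.38, edgeR adjusted p = 0.00123). The 2 sorted libraries were above both embryos for each of these genes, of which all but plvapb were named after their values were seen.

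Not every endothelial gene behaved in this way. AQP1 (ENSDARG00000023713, a water channel) measured 149 and 183 CPM against 144 and 131 CPM and did not pass (log2 fold change 0.48, SE 0.39, edgeR adjusted p = 0.342). The venous transcription factor gene NR2F2 overlapped between the groups, at 57.3 and 105 CPM against 108 and 51.1 CPM (log2 fold change 0.25, SE 0.42, edgeR adjusted p = 0.656). The 1 lower gene was robo4, a guidance receptor gene, at 2.51 and 5.95 CPM against 13 and 11 CPM, where run 2 measured 15.8 and 11.4 CPM and was not called. Of the list, 30 genes were called higher in both runs. The receptor genes KDR and TIE1 and the ligand gene EFNB2 (ENSDARG00000020164) were called higher in run 2 only. In contrast, MYCT1, CLDN5 (ENSDARG00000014059), LMO2 and she passed at equal cycles only. KDR measured 4.0 and 4.09 CPM against 3.30 and 1.94 CPM, and 18.7 and 12.8 CPM in run 2. TIE1 measured 9.82 and 12.4 CPM against 9.36 and 6.14 CPM, and 59.4 and 26.0 CPM in run 2. KDR and TIE1 also passed the direct test between the sorted runs, with log2 differences of -1.60 and -1.50 (edgeR adjusted p = 0.00833 and 0.0151). That test called 3 of 44 endothelial genes lower in run 1 and 1 higher, against 4.24% lower among all genes. DESeq2 called 1 lower and 1 higher.

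**Figure D1:**
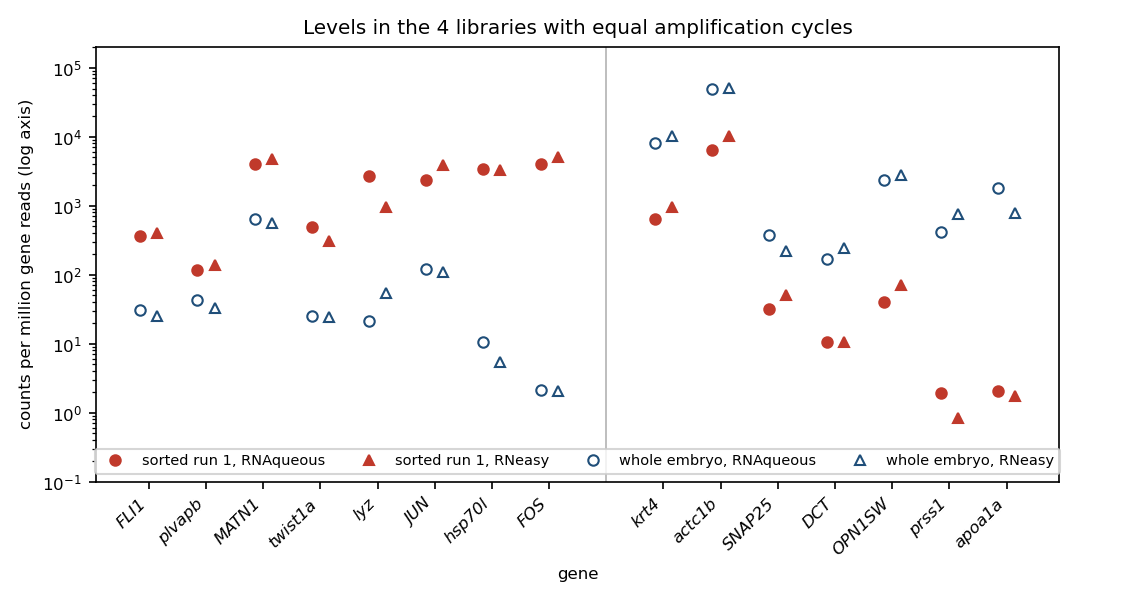
Levels of 15 named genes in the 4 libraries amplified for 11 cycles, in CPM on a log axis, with sorted run 1 filled, whole embryos open, RNAqueous as circles and RNeasy as triangles. For every gene shown both sorted libraries lie on the same side of both embryos, higher for the 8 genes on the left and lower for the 7 on the right.

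Cartilage genes held in full at equal cycles. Of 25 tested, 22 were higher and 1 was lower in run 1, against 17.3% and 25.5% of all genes tested. All 23 calls were also made in the same direction in run 2. The median log2 fold change was 2.72, and the summed level was 27635 and 45406 CPM in A_1 and Q_1 against 7254 and 5458 CPM in A_unsorted and Q_unsorted. Type II collagen, the main fibril of cartilage, gave the highest values, with 5821 and 17273 CPM against 2418 and 1436 CPM for COL2A1 (ENSDARG00000069093, log2 fold change 2.77, SE 0.73, edgeR adjusted p = 0.00878). MATN1, which codes for the matrix protein matrilin, measured 4010.5 and 4699.7 CPM against 652 and 566 CPM (log2 fold change 3.05, SE 0.60, edgeR adjusted p = 0.00147). COL11A1, a minor fibril collagen, gave a log2 fold change of 2.33 (SE 0.58, edgeR adjusted p = 0.00597) and the second COL2A1 gene (ENSDARG00000011407) 2.5. Among regulators, SOX9 (ENSDARG00000003293, the master factor of chondrocytes) measured 488 and 261 CPM against 29.9 and 23.1 CPM and runx2b 35.1 and 31.3 CPM against 3.84 and 1.69 CPM, with log2 fold changes of 4.09 and 3.85. A_1 was below Q_1 for the collagens and above it for SOX9 and snorc, and both stayed above the embryos. The exception was MATN3 (ENSDARG00000069245), which was lower in sorted cells at 14.4 and 4.83 CPM against 172 and 144 CPM.

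Transcription factor genes of the cranial mesenchyme and neural crest showed the same direction. Of 30 tested among 32, 26 were higher and 4 did not pass, against 17.3% higher among all genes tested. The median log2 fold change of the list was 2.57. Its summed level was 3544 and 3653 CPM in A_1 and Q_1 against 712 and 602 CPM in A_unsorted and Q_unsorted. The mesenchymal factor gene twist1a measured 483 and 307 CPM against 25.4 and 24.4 CPM (log2 fold change 4.24, SE 0.51, edgeR adjusted p = 6.30e-05), and snai1a, a regulator of the epithelial to mesenchymal transition, 226 and 323 CPM against 18.5 and 22.8 CPM (log2 fold change 3.91, SE 0.46, edgeR adjusted p = 5.09e-05). The pharyngeal arch factor gene DLX5 measured 324 and 259.9 CPM against 40.4 and 43.2 CPM (log2 fold change 3.03, SE 0.45, edgeR adjusted p = 2.51e-04) and the forkhead gene foxc1b 251 and 320.0 CPM against 29.2 and 18.1 CPM (log2 fold change 3.82, SE 0.45, edgeR adjusted p = 5.49e-05). No member differed between the sorted runs in the direct test at the adjusted threshold. FOXD3, a factor of early neural crest, and 1 LHX6 gene had no reads in any library.

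Type I collagen, the main fibril of skin and bone, was higher than in embryos in run 2 and was not called at equal cycles. The gene col1a1a measured 2493 and 8349 CPM in A_1 and Q_1 against 3027 and 2429 CPM in A_unsorted and Q_unsorted (log2 fold change 1.15, SE 0.66, edgeR adjusted p = 0.176). A_1 lay between the embryos and Q_1 above both. In run 2 it measured 10528 and 9609.6 CPM and passed (log2 fold change 1.85, edgeR adjusted p = 0.00442). COL1A2 measured 1804 and 6879.7 CPM against 2662 and 2534 CPM (log2 fold change 0.89, SE 0.66, edgeR adjusted p = 0.299), and COL1A1 1370.2 and 3593 CPM against 1776 and 1693 CPM (log2 fold change 0.68, SE 0.58, edgeR adjusted p = 0.37). For COL1A2 and COL1A1 A_1 was below both embryos and Q_1 above both, and for all 3 genes the direct test between the runs did not pass (edgeR adjusted p = 0.398, 0.274 and 0.425). SPARC, a collagen binding matrix protein gene, was higher in both sorted libraries at 3756 and 3351 CPM against 1132 and 1423 CPM (log2 fold change 1.69, SE 0.58, edgeR adjusted p = 0.0321). Among all genes tested, 17.3% were higher in run 1 and 23.5% in run 2. Of the 23 fibroblast and matrix genes tested, 14 were higher in run 1 and 18 in run 2, with a median of 1.54 in run 1. Fewer of the 23 were called higher in run 1 without A_unsorted or Q_unsorted, as were fewer of all genes, with medians of 1.42 and 1.64. The receptor gene PDGFRB, a marker of perivascular cells, measured 7.05 and 11.3 CPM against 8.40 and 10.7 CPM in run 1 and the embryos and 70.7 and 37.6 CPM in run 2, a direct log2 difference of -2.18 (edgeR adjusted p = 2.05e-04). PDGFRB was named after its value was seen. It was the 1 member of 23 called lower between the runs, near the 4.24% of all genes, and 0 were higher.

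Blood cell genes were mixed. Of 16 leukocyte genes tested among 18, 9 were higher and 2 lower, against 17.3% and 25.5% of all genes tested. The median log2 fold change of the list was 1.93, and 9 of the higher genes were shared with run 2. The lysozyme gene lyz, a marker of granulocytes and macrophages, measured 2719 and 962 CPM in A_1 and Q_1 against 21.4 and 53.3 CPM in A_unsorted and Q_unsorted (log2 fold change 5.85, SE 0.82, edgeR adjusted p = 1.64e-04), with A_1 above Q_1. The pan-leukocyte gene ptprc stood at 7.05 and 9.01 CPM against 2.16 and 0.717 CPM and CORO1A, an actin regulator of leukocytes, at 74.4 and 100.4 CPM against 22.3 and 31.1 CPM (log2 fold changes 2.73 and 1.89). The 2 CXCR4 genes, which endothelial cells also use and which stand in both lists, rose by 3.51 and 3.92 on the log2 scale. The macrophage gene MPEG1 (ENSDARG00000043093) and csf1ra, the receptor gene of macrophages and yellow pigment cells, were lower, at 3.32 and 6.88 CPM against 20.9 and 11.1 CPM and 0.949 and 0.279 CPM against 2.4 and 3.22 CPM.

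Red blood cell genes gave no common direction, with 2 of 10 tested members higher, 1 lower and a median of 0.08, against 17.3% higher and 25.5% lower among all genes. The number called higher fell without A_1 and rose without Q_1, with medians of 0.24 and -0.08. The globin gene hbae3 measured 5469.9 and 2306 CPM against 1383 and 1273 CPM (log2 fold change 1.82, SE 0.65, edgeR adjusted p = 0.0364). It was not called in run 2, at 1056 and 1805 CPM, and the runs differed by 1.70 on the log2 scale (edgeR adjusted p = 0.0442). That test called 1 of 11 red blood cell genes higher in run 1 and 1 lower, against 6.7% and 4.24% of all genes. DESeq2 called 1 higher and 0 lower, and edgeR without the kit covariate 0 higher and 1 lower. The carbonic anhydrase gene cahz and the heme synthesis gene alas2 did not pass (log2 fold changes -0.50 and 0.15), nor did hbae5 (-0.72), for which only 3.73% to 9.86% of the strand-column reads were kept across the 4 libraries. For hbae5 the first strand column gave a log2 fold change of 0.31 and the second one of -2.08. Globin genes are near-identical copies, and reads on multiple loci were not counted.

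Of the 10 largest increases at equal cycles, 5 were in the immediate early and heat shock lists. Of the 26 immediate early genes, 25 were tested and all 25 were higher, against 17.3% of all genes tested. Their median log2 fold change was 5.21 and the lowest was 1.89. They summed to 21252 and 27168 CPM in A_1 and Q_1 against 745 and 682 CPM in A_unsorted and Q_unsorted, and the same 25 were called higher in run 2. The 26th, SOCS3 (ENSDARG00000025428), a feedback inhibitor of cytokine signalling, had no read in A_1 and Q_1, 3 and 0 reads in the embryos and 2.22 and 2.13 CPM in run 2, where it was called higher than in embryos. It was at least 7.81-fold lower in run 1 than in run 2 (edgeR adjusted p = 1.15e-05). Leaving out A_unsorted left 24 calls, and each of the other libraries 25. FOS, which codes for a subunit of the AP-1 transcription factor, measured 3998 and 5078 CPM in A_1 and Q_1 against 2.10 and 2.05 CPM in A_unsorted and Q_unsorted (log2 fold change 11.29, SE 0.85, edgeR adjusted p = 4.0e-06). Of its strand-column reads, 67.5% and 67.4% were kept in A_1 and Q_1, 59.3% and 58.8% in the embryos and 31.7% and 31.0% in run 2, and with the strand columns summed its log2 fold change was 11.14.

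Other AP-1 genes moved with it. FOSB had 92.8 and 86.3 CPM in A_1 and Q_1 and 0 and 3 reads in the embryos, a pooled ratio of 1087 with a 95% counting interval of 372 to 5276. JDP2 (ENSDARG00000020133), whose product represses AP-1 and which is in neither list, measured 3253 and 2109 CPM against 4.74 and 4.96 CPM (log2 fold change 9.35, SE 0.78, edgeR adjusted p = 6.79e-06), and FOSL1 202 and 211 CPM against 0.780 and 0.921 CPM (log2 fold change 8.11, SE 0.54, edgeR adjusted p = 3.42e-06). The 2 JUNB genes reached 3704 and 5349 CPM against 40.7 and 31.3 CPM for ENSDARG00000104773 and a log2 fold change of 7.63 for ENSDARG00000074378. JUN itself, the partner of FOS, was already at 119.6 and 110.0 CPM in the embryos and at 2343 and 3881 CPM in sorted cells (log2 fold change 4.95, SE 0.63, edgeR adjusted p = 8.59e-05). In none of these genes did the 2 groups overlap, which is a description, since the share over all genes was not computed. None was called between the sorted runs, where the edgeR adjusted p ran from 0.0601 for FOS to 0.956.

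Of 12 heat shock and unfolded protein genes, 9 were higher and none was lower, against 17.3% and 25.5% of all genes tested. All 9 were also higher in run 2. In edgeR 9 of the 12 had an unadjusted p under 0.05, against 10371 of all 20254 genes tested. DESeq2 called 9 higher and 0 lower. The inducible chaperone gene hsp70.1 measured 566 and 529 CPM in A_1 and Q_1 against 0.42 and 0.358 CPM in A_unsorted and Q_unsorted (log2 fold change 10.66, SE 0.67, edgeR adjusted p = 3.42e-06) and hsp70l 3369 and 3318 CPM against 10.4 and 5.37 CPM (log2 fold change 8.98, SE 0.78, edgeR adjusted p = 7.59e-06). HSP90AA1 (ENSDARG00000024746), the inducible form of HSP90, measured 5846 and 3479 CPM against 75.7 and 113 CPM (log2 fold change 5.85, SE 0.75, edgeR adjusted p = 8.83e-05), and its co-chaperone gene dnajb1b gave a log2 fold change of 7.15. In the unfolded protein branch XBP1 reached 1463 and 1682 CPM against 351 and 342 CPM (log2 fold change 2.39, SE 0.52, edgeR adjusted p = 0.00265) and HSPA5 a log2 fold change of 2.47. The constitutive chaperone gene HSPA8 (ENSDARG00000068992) overlapped between the groups at 2341 and 5028 CPM against 3016 and 3589.8 CPM and did not pass (log2 fold change 0.32, SE 0.60, edgeR adjusted p = 0.698). The hsp70 genes are close copies of each other, so reads may be lost or split among them.

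Besides JDP2, the 10 largest increases held 4 genes outside these lists. The gene si:ch73-335l21.4 measured 1054 and 787 CPM against 1.32 and 2.92 CPM (log2 fold change 8.95, SE 0.75, edgeR adjusted p = 6.79e-06). For MIA, which codes for a secreted cartilage protein, and adgre10, an adhesion G protein coupled receptor gene, most reads were left out of the count as shared with another gene. MIA measured 623 and 171 CPM against 1.62 and 0.717 CPM (log2 fold change 8.73, SE 0.84, edgeR adjusted p = 1.48e-05), but the count kept 18.8% and 19.7% of its strand-column reads in A_1 and Q_1 and 2.20% and 1.18% in the embryos, and with the strand columns summed its log2 fold change was 5.29. For adgre10 (219 and 307 CPM against 0.780 and 0.972 CPM) the kept shares were 10.4% and 8.35% against 3.33% and 2.64%, and the log2 fold change fell from 8.40 to 6.78. The sums also count reads of the gene they overlap, so the size of both increases is uncertain while the direction was the same in either count. The fourth, si:dkey-90l23.1, had 45.2 and 28.2 CPM in A_1 and Q_1 and 2 and 0 reads in the embryos, a pooled ratio of 688 (95% counting interval 190.0 to 5690.0). Of its reads in A_1 and Q_1, 99.9% and 100% were in the first strand column. In run 2 it had only 0.137 and 0.178 CPM in A_2 and Q_2 and was not tested against embryos. The other genes were called higher in run 2 as well. There MIA measured 8.40 and 7.14 CPM, adgre10 37.6 and 38.2 CPM and si:ch73-335l21.4 529 and 572 CPM.

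The largest decreases at equal cycles were in digestive enzyme, lens and other genes, 8 of the 9 named here having no read in either sorted library. The trypsin gene prss59.2 had 0 reads in A_1 and Q_1 and 475 and 817 CPM in the embryos, at least 2319-fold lower when set against 3 reads in the shallower sorted library. On the same measure the lens crystallin gene crybgx (372 and 495 CPM in the embryos) was at least 1555-fold lower, the chymotrypsin gene ctrb.3 at least 829.7-fold and prss59.1 at least 449-fold. The chymotrypsin-like gene ctrl was at least 193-fold lower, ceacam1 at least 202-fold, zgc:165423 at least 295-fold and si:dkey-57a22.15 at least 504-fold. For ctrb.1, with 1 read in Q_1 and none in A_1 against 340.1 and 589.6 CPM, the pooled ratio of embryos to sorted cells was 12117 (95% counting interval 2174 to 478616). For all 9 genes the edgeR adjusted p was 6.35e-06 or lower.

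Lists of the same tissues were depleted almost throughout. Of 16 pancreas genes tested, 15 were lower and none was higher, against 25.5% lower among all genes tested, with a median log2 fold change of -7.80, or -6.61 with the 4 genes without reads set at their bound. The trypsin gene prss1 measured 1.90 and 0.836 CPM in A_1 and Q_1 against 412 and 749 CPM in A_unsorted and Q_unsorted (log2 fold change -8.48, SE 0.73, edgeR adjusted p = 7.59e-06) and the carboxypeptidase gene CPA1 (ENSDARG00000021339) 86.0 and 109 CPM against 413 and 640.4 CPM (log2 fold change -2.26, SE 0.48, edgeR adjusted p = 0.00241). The exception was gcga, the glucagon gene, at 11 and 0.186 CPM against 5.22 and 9.21 CPM. All 23 liver and gut genes tested were lower, with a median of -6.10, and all 23 calls were shared with run 2. Among the apolipoprotein genes, which carry lipids in plasma, apoa2 measured 76.4 and 35.4 CPM against 9456 and 6190.5 CPM (log2 fold change -6.84, SE 0.82, edgeR adjusted p = 5.94e-05), apoa1b 36 and 17.0 CPM against 3439.7 and 2263 CPM, apoa1a 2.03 and 1.77 CPM against 1813 and 790.0 CPM and apobb.1 0.474 and 0.372 CPM against 1576 and 369.5 CPM. Their log2 fold changes were -6.46 for apoa1b, -9.14 for apoa1a and -10.83 for apobb.1.

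In the eye, 19 of 21 photoreceptor and lens genes were lower and none was higher, against 25.5% and 17.3% of all genes tested. The median of the list was -4.51. The cone opsin gene OPN1SW measured 39.5 and 71.1 CPM against 2391 and 2813 CPM (log2 fold change -5.38, SE 0.63, edgeR adjusted p = 5.09e-05). The lens genes crygm2d1 and cryba1b measured 8.54 and 29.5 CPM against 1768 and 2220.3 CPM and 47.6 and 167 CPM against 2014 and 1654 CPM, with log2 fold changes of -6.58 and -3.94. Both sorted libraries were below both embryos for each of these genes, and the share of all genes without overlap was not computed. Of 25 neuron and glia genes, 21 were lower and none was higher, with a median of -2.26. SNAP25 (ENSDARG00000020609), a synaptic vesicle fusion gene, measured 31.8 and 50.5 CPM against 376 and 224 CPM (log2 fold change -2.65, SE 0.44, edgeR adjusted p = 5.07e-04). The neuronal RNA binding protein genes ELAVL3 and ELAVL4 and the sodium pump gene atp1a3a gave -1.70, -1.86 and -2.02 on the log2 scale.

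Skin and pigment genes were also lower at equal cycles. Of 19 epidermis and epithelium genes, 17 were lower and none was higher, against 25.5% and 17.3% of all genes tested. The median of the list was -2.64. Keratin gene krt4 measured 643 and 955 CPM against 8195 and 10079.9 CPM (log2 fold change -3.33, SE 0.67, edgeR adjusted p = 0.00169), krt5, a basal keratin gene, 22.8 and 18.1 CPM against 802 and 1043 CPM (log2 fold change -5.28, SE 0.57, edgeR adjusted p = 3.07e-05), and krt1-19e and krt91 gave log2 fold changes of -3.45 and -3.18. Of these, krt5 was also lower in run 1 than in run 2 (88.0 and 80.0 CPM, log2 difference -1.70, edgeR adjusted p = 0.00638). The direct test called 1 of 19 genes of this list lower and 1 higher, against 4.24% and 6.7% of all genes. Pigment cells derive from the neural crest as jaw cartilage does, and 12 of the 15 pigment genes tested were lower, none was higher, and the median was -3.29. The melanin synthesis genes TYRP1 (ENSDARG00000056151) and DCT measured 24.1 and 42.2 CPM against 492 and 683 CPM and 10.7 and 10.4 CPM against 169 and 246 CPM (log2 fold changes -3.98 and -4.10), and the melanosome matrix gene pmela fell by 4.24 on the log2 scale. The pteridine synthesis gene gch2 was lower in both sorted libraries without passing, at 125 and 134 CPM against 206 and 283 CPM (log2 fold change -0.72, SE 0.42, edgeR adjusted p = 0.187).

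Skeletal and cardiac muscle genes were lower in sorted cells as well. Of 40 skeletal and cardiac muscle genes, 33 were lower in run 1, none was higher, and 39 were lower in run 2. Among all genes tested 25.5% were lower in run 1 and 28.2% in run 2. The median of the muscle list was -2.06 in run 1 and -2.72 in run 2. The list still summed to 29970.0 and 33312 CPM in A_1 and Q_1 against 146986 and 185129 CPM in A_unsorted and Q_unsorted. The sarcomeric actin gene actc1b measured 6494 and 10105 CPM against 48853 and 51489 CPM (log2 fold change -2.41, SE 0.81, edgeR adjusted p = 0.0295), the parvalbumin genes pvalb2 and pvalb1 6016 and 3758 CPM against 19701 and 32435 CPM and 4355 and 2684 CPM against 12348 and 22666 CPM, and the myosin light chain gene MYL1 (ENSDARG00000017441) gave -1.85 on the log2 scale. For these 7 depleted lists edgeR and DESeq2 called 0 genes higher, and the genes with an unadjusted p under 0.05 in either direction were 15 for pancreas, 23 for liver and gut, 19 for photoreceptor and lens, 21 for neuron and glia, 18 for epidermis, 12 for pigment and 36 for muscle. Of all 20254 genes tested, 10371 had such a p. The number of lower muscle genes fell to 19 without A_1, 22 without Q_1 and 20 without Q_unsorted. In the direct test 8 of 38 muscle genes were higher in run 1 than in run 2 and none was lower, against 6.7% and 4.24% of all genes. Among the 8 was pvalb2 (796 and 1573 CPM in run 2, log2 difference 2.43, edgeR adjusted p = 0.00204). DESeq2 called 7 higher. The median log2 difference of the list was 0.71, and with 1 library left out it ran from 0.45 without A_2 to 1.14 without Q_2.

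**Figure D2:**
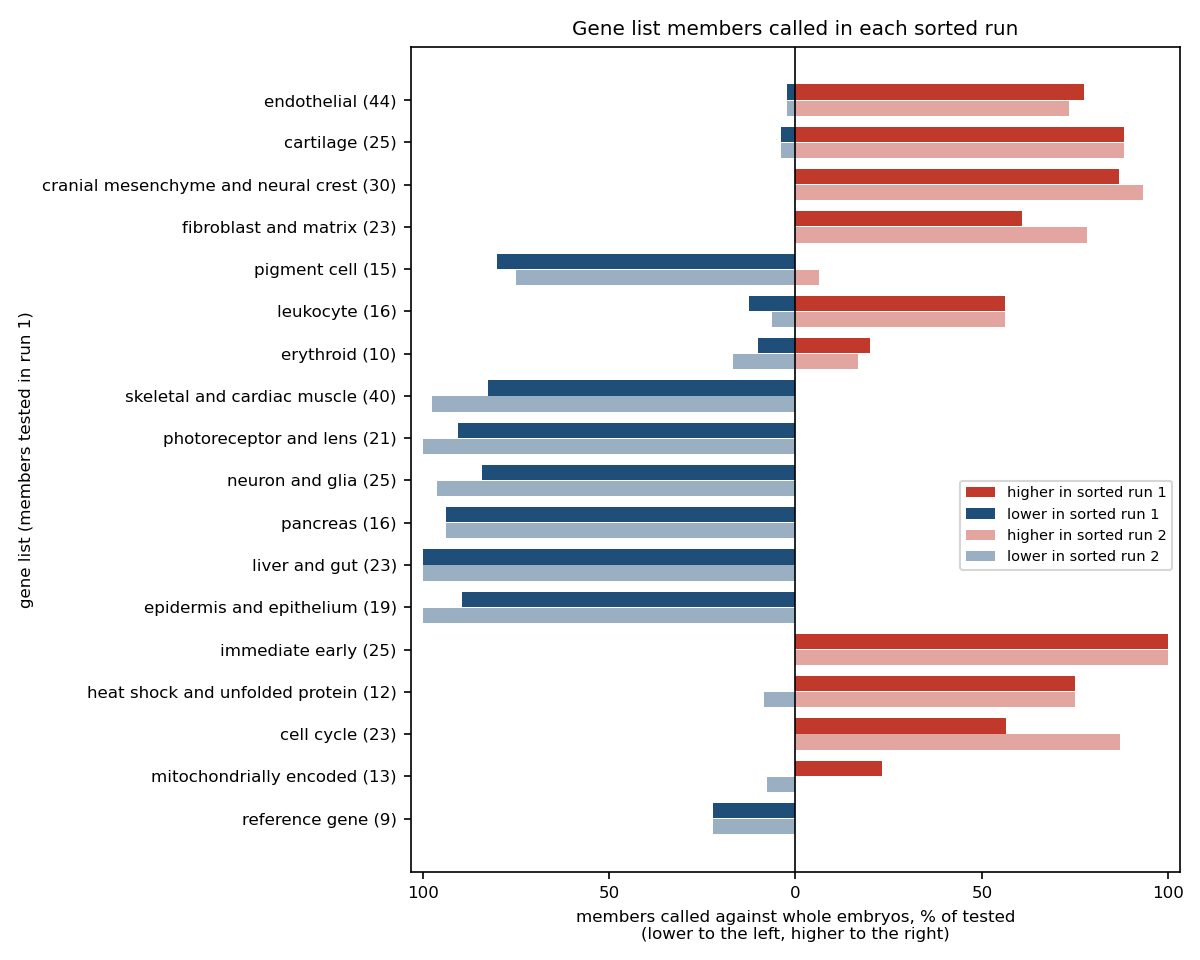
Share of tested members of each gene list that were called against whole embryos at an adjusted p under 0.05, higher to the right and lower to the left, with run 1 (11 cycles) in full colour and run 2 (13 cycles) in pale colour. The 44 endothelial, 25 cartilage and 25 immediate early genes tested in run 1 lie to the right in both runs, the muscle, eye, neural, pancreas, liver and skin lists lie to the left, and the mitochondrially encoded list has 3 genes higher in run 1 and 1 lower in run 2.

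Cell cycle genes were higher in sorted cells in part, with medians of 1.18 in run 1 and 1.44 in run 2. Of 23 tested, 13 passed in run 1 and 20 in run 2, against 17.3% and 23.5% higher among all genes. Among those called in both runs was AURKB, a kinase of chromosome segregation, at 181 and 189 CPM against 35.0 and 53.8 CPM (log2 fold change 2.25, SE 0.43, edgeR adjusted p = 0.00134), and CDK1 measured 159 and 140.3 CPM against 52.0 and 63.7 CPM (log2 fold change 1.58, SE 0.40, edgeR adjusted p = 0.00735). Of the 6 genes of the MCM helicase, which unwinds replicating DNA, MCM7 passed (123 and 171 CPM against 76.2 and 79.6 CPM, log2 fold change 1.11, SE 0.39, edgeR adjusted p = 0.0339), while MCM2, MCM3, MCM4, MCM5 and MCM6 (ENSDARG00000057683), all called higher in run 2, gave log2 fold changes of 0.36 to 0.91 and did not pass. PCNA did not pass in either run (log2 fold change 1.23, SE 0.50, edgeR adjusted p = 0.0636 in run 1). Fewer cell cycle genes passed without A_unsorted, as did fewer of all genes, and the median of the list was then 0.86. Among 9 reference genes used for normalization in expression assays, the actin genes actb2 and actb1 and the elongation factor gene eef1a1l1 did not pass (0.80, 0.93 and 0.67 on the log2 scale). GAPDH, a glycolytic enzyme gene, was lower at 495 and 619.8 CPM against 2032 and 3002 CPM (log2 fold change -1.99, SE 0.56, edgeR adjusted p = 0.0116), and HPRT1 was lower as well (-1.19). DESeq2 called 2 of the 9 lower and 2 higher. In edgeR 2 of 9 were lower and 0 higher, against 25.5% lower and 17.3% higher among all genes tested. Fewer reference genes were called lower whenever 1 library was left out, as were fewer of all genes.

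Nuclear genes of the respiratory chain and the mitochondrial ribosome are families picked by name after their values were seen. Most respiratory chain genes and 32 of 73 mitochondrial ribosomal genes were lower in run 2, and most did not pass at equal cycles. Among all genes tested, 28.2% were lower in run 2 and 25.5% in run 1. Of 39 complex I subunit genes tested, 35 were lower and none higher in run 2 with a median of -1.26, and 2 were lower and 2 higher in run 1 with a median of 0.29. The counts lower in run 2 and in run 1 were 17 and 3 of 18 for complex IV, 8 and 0 of 8 for complex III, 16 and 0 of 20 for ATP synthase and 32 and 0 of 73 for mitochondrial ribosomal proteins. For the latter 3 families, 2, 0 and 13 genes had an unadjusted p under 0.05 in either direction in run 1, against 10371 of all 20254. In these families DESeq2 called 1, 0 and 0 genes lower and 1, 0 and 8 higher. In the direct test 28 of 39 complex I, 3 of 8 complex III, 15 of 18 complex IV, 10 of 20 ATP synthase and 38 of 73 mitochondrial ribosomal genes were higher in run 1, against 6.7% of all genes, and none was lower. NDUFA4 measured 849 and 299 CPM in A_1 and Q_1 against 350.4 and 389 CPM in A_unsorted and Q_unsorted and 128 and 188 CPM in run 2, and cox6a1 2251 and 759 CPM against 978 and 1143 CPM and 426 and 606 CPM. In both genes A_1 was highest, Q_1 lay below the embryos, and run 2 was lowest.

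The 2 run 1 libraries differed widely in these families. Complex I genes summed to 11310.5 CPM in A_1, 5421 in Q_1, 3003 and 4275 in A_2 and Q_2, and 7233 and 8943 in the embryos. Without A_1 the run 1 median of complex I against embryos was -0.52, and without Q_1 it was 0.81. The median log2 difference of these genes between the runs was 0.84 without A_1 and 2.47 without Q_1. In either case no more than 2 of them were called lower than in embryos. With all libraries 4 of 73 mitochondrial ribosomal genes were called higher than in embryos, against 17.3% of all genes. Their run 1 median was 0.58, and -0.13 without A_1 and 0.87 without Q_1. More complex I and mitochondrial ribosomal genes were called higher without Q_1. Leaving out A_2 left direct calls for 3 complex I, 1 complex III, 3 complex IV, 1 ATP synthase and 1 mitochondrial ribosomal gene. UQCRC1 and UQCRC2, the core subunits of complex III, stood otherwise, with Q_1 above A_1 (212 and 288 CPM against 551 and 635 CPM for UQCRC1) and direct log2 differences of 0.18 and 0.30. Cytosolic ribosomal protein genes had a median of 1.1 in run 1 and of -0.09 in run 2. The run 1 calls depended on the method. DESeq2 called 57 of 85 higher and 0 lower, where it called 3689 of all 20254 genes tested higher. In edgeR 13 of 85 were higher in run 1, a smaller share than the 17.3% of all genes tested, and in run 2 none was higher and 1 was lower. Fewer of the 85 passed in edgeR without A_1, A_unsorted or Q_unsorted, and more without Q_1. The run 1 median was 0.62 without A_1, 1.52 without Q_1, 0.78 without A_unsorted and 1.56 without Q_unsorted. Of 12 Lsm genes, which bind RNA, 6 were higher in run 1, against 17.3% of all genes, and none in run 2. Fewer passed without A_1 or A_unsorted and more without Q_1. Their run 1 median was 1.37, and 0.55 without A_1, 1.92 without Q_1 and 1.06 without A_unsorted.

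**Figure D3:**
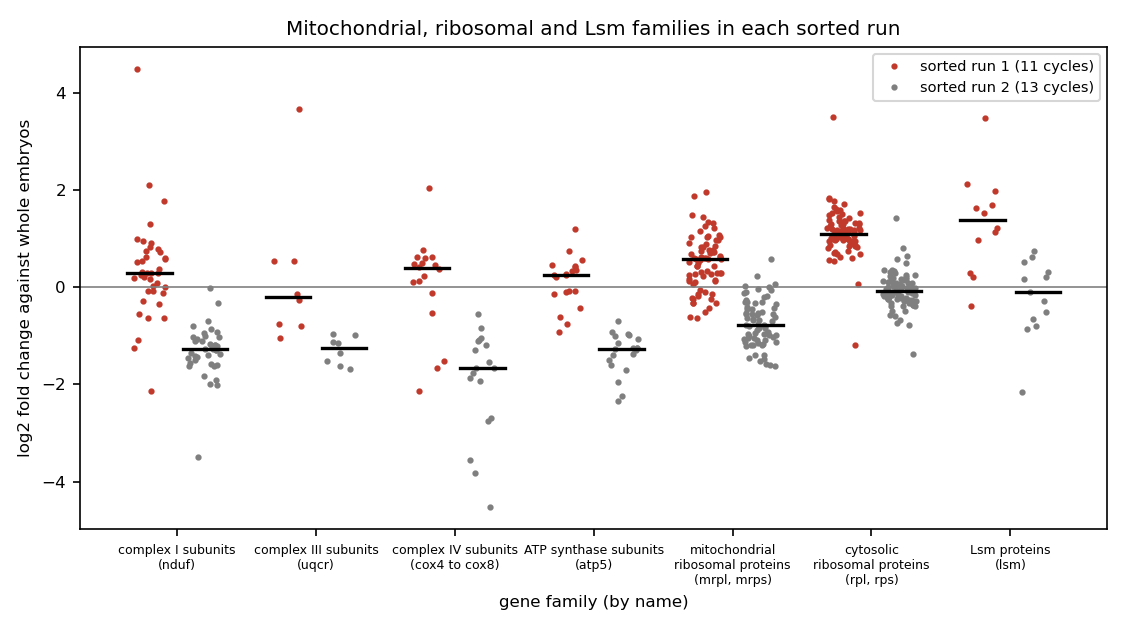
Log2 fold change against whole embryos of each gene of 7 families chosen by name, for sorted run 1 (red) and run 2 (grey), with the family median as a black bar. The run 2 points of the respiratory chain families lie below 0 and the run 1 points lie around 0, with complex I medians of 0.29 and -1.26 in run 1 and run 2. Both runs are set against the same 2 embryos.

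For the genes encoded in mitochondrial DNA the 2 embryos differed widely. The 13 genes summed to 26381 and 23314 CPM in A_1 and Q_1 against 19896 and 5156 CPM in A_unsorted and Q_unsorted, with A_unsorted close to the sorted cells and Q_unsorted far below. MT-CYB, the cytochrome b gene, measured 2785 and 2807 CPM against 2661 and 564 CPM (log2 fold change 1.08, SE 0.67, edgeR adjusted p = 0.209), and MT-CO2, a catalytic subunit of complex IV, 9953 and 4654 CPM against 3797 and 1365 CPM (log2 fold change 1.82, SE 0.72, edgeR adjusted p = 0.0579). MT-CO3 and MT-CO1 did not pass either (1.52 and 1.02 on the log2 scale). Of the 13 genes, 3 were called higher, against 17.3% of all genes tested. The 3 calls depended on the library left out, with more genes called higher without A_unsorted and fewer without A_1 or Q_unsorted. The median log2 fold change was 1.08 with all libraries, 2.36 without A_unsorted and 0.42 without Q_unsorted. On the second strand column none was called higher, the first gave 2, and DESeq2 gave 5 on the main count. Of the 3, mt-atp8, an ATP synthase subunit gene, had 96.3% and 97.2% of its A_1 and Q_1 reads in the first strand column, and its log2 fold change of 3.52 was -0.34 on the second. For mt-nd4l, a complex I subunit gene, the shares were 82.6% and 84.7%, and the log2 fold change of 1.45 was 0.0057 on the second column. The third, MT-ND6, was evenly split and went from 1.61 to 0.95 and 0.98 on the strand columns. The direct test, which does not use the embryos, called 10 of 13 higher in run 1 than in run 2, against 6.7% of all genes. The median log2 difference was 2.09, and with 1 library left out it ran from 1.79 without A_2 to 2.39 without Q_2. Fewer of the 13 were called without A_2 or Q_2, as were fewer of all genes.

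A small number of genes changed direction between the comparisons: 27 were higher than in embryos at equal cycles and lower in run 2, and 15 the reverse. P4HB, an enzyme of collagen folding in the endoplasmic reticulum, measured 104 and 97.7 CPM in A_1 and Q_1 against 387 and 330.3 CPM in A_unsorted and Q_unsorted, so both sorted libraries were below both embryos (log2 fold change -1.60, SE 0.42, edgeR adjusted p = 0.009). Run 2 measured 998 and 1179 CPM, above the embryos (log2 fold change 1.57, edgeR adjusted p = 0.00304). ITGB1 (ENSDARG00000104484), an integrin subunit that binds matrix, measured 10.4 and 13.8 CPM against 29.8 and 53.0 CPM with 88.0 and 75.3 CPM in run 2, and the RNA binding protein gene syncripl 15.4 and 13.6 CPM against 33.8 and 32.8 CPM with 85.8 and 54.5 CPM. The unnamed genes ENSDARG00000086304 and ENSDARG00000101256 followed the same pattern, with log2 fold changes of -1.48 and -1.32 in run 1 and 1.80 and 0.86 in run 2. None of the 5 overlapped between run 1 and the embryos, but they were picked for their calls in run 1, so this is a description. On the first strand column alone, ENSDARG00000086304 and syncripl did not pass in run 1 (log2 fold changes -1.16 and -0.95, edgeR adjusted p = 0.0565 and 0.0538). P4HB, ITGB1 (ENSDARG00000104484) and ENSDARG00000101256 passed on either strand column.

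In the other direction, several calls at equal cycles also depended on which reads were counted. The globin gene HBE1 (ENSDARG00000045143) measured 582 and 256 CPM against 195 and 195 CPM (log2 fold change 1.37, SE 0.52, edgeR adjusted p = 0.0486) with 59.8 and 100.1 CPM in run 2. The count kept 63.7% and 62.9% of its strand-column reads in A_1 and Q_1 against 37.7% and 31.8% in the embryos, and with the strand columns summed it no longer passed (log2 fold change 0.51, edgeR adjusted p = 0.476). For cox8a, a complex IV subunit, at 490.0 and 210.2 CPM against 94.3 and 109.6 CPM, the kept shares were 61.2% and 59.3% against 29.2% and 25.9%, and the log2 fold change went from 2.04 to 0.91 (edgeR adjusted p = 0.00785 and 0.192). LSM6 and LSM2 (ENSDARG00000070867), small proteins of RNA processing complexes, kept their calls in the summed columns (log2 fold change 1.53, SE 0.56, edgeR adjusted p = 0.0423 and log2 fold change 1.62, SE 0.56, edgeR adjusted p = 0.0317 in the main count). For LSM6 the groups overlapped in CPM, at 327 and 106 CPM against 72.6 and 107 CPM, with A_1 high, and LSM2 measured 296 and 93.6 CPM against 65.0 and 86.6 CPM.

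Strand mattered for others. ENSDARG00000098584 measured 353 and 101 CPM against 39.3 and 41.4 CPM (log2 fold change 2.77, SE 0.59, edgeR adjusted p = 0.00245), with 88.8% and 90.3% of its run 1 reads in the first strand column. On the second strand column its log2 fold change was 0.71 (edgeR adjusted p = 0.321). The complex I gene NDUFA12 measured 56.3 and 19.9 CPM against 2.58 and 1.59 CPM (log2 fold change 4.49, SE 0.57, edgeR adjusted p = 8.59e-05) and 0.410 and 0.622 CPM in run 2. Of its reads in A_1 and Q_1, 95.3% and 98.6% were in the first strand column, and the second strand column gave 0.75 (edgeR adjusted p = 0.481). UQCRB of complex III had 93.5% and 93.7% in that column, and its log2 fold change of 3.66 became 0.90 on the other strand (edgeR adjusted p = 0.221). In all, 73 genes were uneven in the same direction in both run 1 libraries. Of the 62 tested against embryos, 31 were called higher and 9 lower, against 17.3% and 25.5% of all genes tested. On the strand with fewer run 1 reads, a choice that itself lowers the run 1 level, 13 of 29 tested higher calls and 6 of 9 lower calls passed. Over all genes the main count gave 3511 higher and 5159 lower calls, and 2619 and 3934 genes were called on both strand columns.

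**Figure D4:**
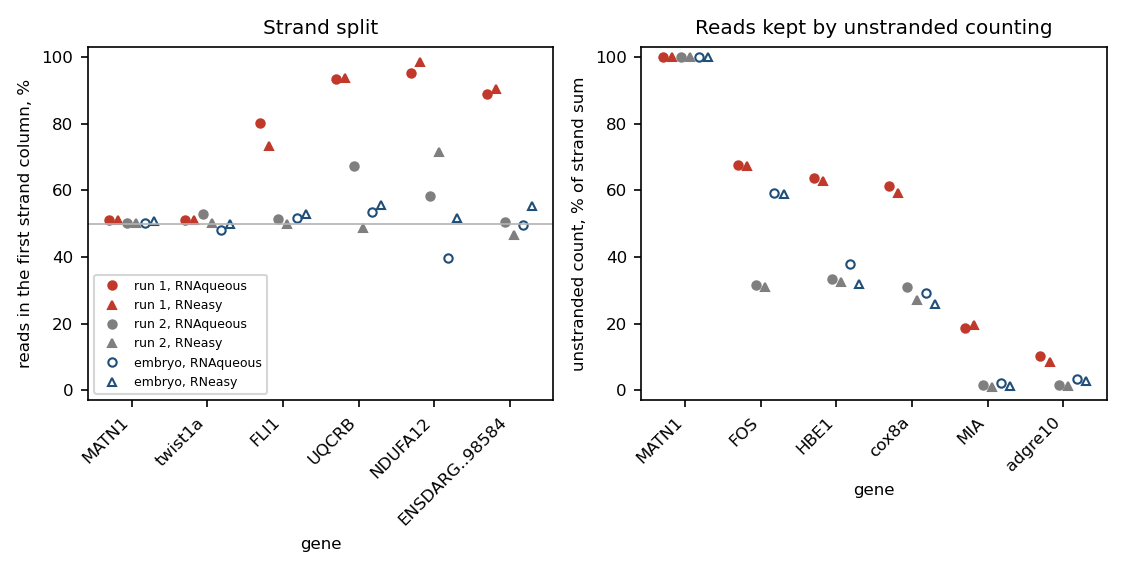
Share of strand-column reads in the first strand column (left) and unstranded count as a percent of the strand-column sum (right) for selected genes in each RNA sample, with run 1 red, run 2 grey, embryos open, RNAqueous as circles and RNeasy as triangles. MATN1 lies at an even split and is counted in full in all 6, FLI1, UQCRB, NDUFA12 and ENSDARG00000098584 are uneven in run 1, and FOS, HBE1 (ENSDARG00000045143), cox8a, MIA and adgre10 keep a larger share in run 1.

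Of the genes that differed both from embryos at equal cycles and between the sorted runs, the 5 largest run differences in each direction included 5 already described (si:dkey-90l23.1, NDUFA12, MIA, prss59.2 and ctrb.1). The cardiac myosin light chain gene MYL7 was lower than in embryos in run 1, at 19.2 and 3.16 CPM against 46.5 and 47.7 CPM (log2 fold change -1.76, SE 0.62, edgeR adjusted p = 0.0355), but was at 0.273 and 0.148 CPM in run 2, and the lens gene crygm2d5 likewise measured 1.83 and 7.99 CPM against 38.2 and 30.7 CPM and 0.171 and 0.0593 CPM. Of 25 gamma M crystallin genes tested, a family also picked after its values were seen, all 25 were lower in both runs. Among all genes 25.5% were lower in run 1 and 28.2% in run 2. Between the runs 6.7% of all genes were higher in run 1, and 19 of the 20 gamma M crystallin genes tested were. They summed to 160.0 and 576 CPM in A_1 and Q_1, 107 and 146 CPM in run 2 and 14892 and 17042 CPM in the embryos. These genes are near-identical copies, and reads on several of them were not counted.

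Genes lower in run 1 than in run 2 included the pancreatic genes prss59.2 (1.95 and 19.4 CPM in run 2, at least 38.3-fold lower in run 1) and ctrb.1 (0.512 and 9.51 CPM in run 2), for both of which Q_2 was above A_2. The ratio of run 2 to run 1 was 136 for ctrb.1, with a 95% counting interval of 24.3 to 5390.0. APOD (ENSDARG00000060350), a lipocalin gene, measured 0.407 and 0 CPM in A_1 and Q_1, 3.59 and 6.73 CPM in run 2 and 138 and 385 CPM in the embryos. The gene si:dkey-153m14.1 stood at 1.42 and 2.32 CPM in run 1, 51.4 and 104 CPM in run 2 and 128 and 441 CPM in the embryos. The unnamed gene ENSDARG00000087337 had 3 reads over A_1 and Q_1, and the ratio of embryos to run 1 was 229.5 (95% counting interval 78.3 to 1115). Each of these 5 genes was lower than in embryos in both runs, and the depletion was larger in run 1.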

How the data were processed

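RNA-seq libraries were made by the authors from polyadenylated RNA as full-length cDNA without strand information and sequenced on 1 platform in separate runs. The deposited files hold raw counts per gene, as made by the authors with STAR on GRCz10, in a column that ignores strand and 2 strand columns, and the column that ignores strand was used. It leaves out reads on several loci or on more than 1 gene. Files held 35117 genes, of which 27000 were paired with a symbol.

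Sorted run 1 (n = 2) was compared with whole embryos (n = 2) in edgeR 4.0.16 (R 4.3.3) with TMM normalization, filterByExpr, the quasi-likelihood test and Benjamini-Hochberg adjustment at 0.05, without covariates. Run 2 (technical libraries summed per RNA) was compared with the same embryos in the same way, and the sorted runs with each other with kit as a covariate. The SE given with a log2 fold change is its absolute value divided by the square root of the F statistic of that test. It is not a separate estimate. The common biological coefficient of variation of the main comparison was 31.8%. An exact permutation test of 2 against 2 cannot go below p = 0.333, and with 1 pool of cells, 1 embryo per kit and no separate cultures named, p-values measure only the spread between these libraries. CPM were taken over the total gene counts of a library without TMM scaling.

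Named were the 10 largest increases and the 10 largest decreases with a mean of at least 10 CPM and more than 2-fold with each kit, fli1a and fli1b, the 4 members of each list with the highest mean CPM, the 5 genes per direction with opposite calls and the highest mean CPM, and the 5 per direction with the largest run difference. Other genes were named after their values were seen. Some results are not reported here. The 18 gene lists matched 402 genes, with 13 names unmatched, and list members and lists were chosen with earlier results of these data known. Gene symbols that several genes share are given with their identifiers. A gene without reads in a group was set against 3 counts, and with 1 to 3 counts the ratio has a 95% exact (Clopper-Pearson) interval. Alternatives were DESeq2 1.42.0, other normalization and filters, thinning to 10763174 counts, leaving out each library, kit as a block, 1 fit over all groups and other count columns. The strand columns taken alone and the genes without overlap were added after seeing the data. The fits were tested on simulated data.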

Additional observations from a re-analysis of the deposited data

Results flagged for a closer look

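The 20 genes listed here were named for opposite calls against embryos or for the largest differences between the sorted runs. On the main count all passed the direct edgeR test with kit as a covariate, which does not use the embryos. Given how they were picked, their passing is a description and no separate evidence. Other named genes passed as well, among them pvalb2, krt5 and adgre10 (log2 difference 3.11, and 0.27 with the strand columns summed). Higher in run 1 by the log2 difference were si:dkey-90l23.1 (8.10), NDUFA12 (6.33), MYL7 (5.80), MIA (5.74) and crygm2d5 (5.42). The genes called in opposite directions that were higher in run 1 were HBE1 (ENSDARG00000045143, 2.66), cox8a (2.82), LSM6 (2.22), LSM2 (ENSDARG00000070867, 2.22) and ENSDARG00000098584 (3.74). With the strand columns summed, MIA gave 1.85 and HBE1 (ENSDARG00000045143) 1.74, and neither passed (edgeR adjusted p = 0.0517 and 0.0551). For cox8a the sum gave 1.79 and passed (edgeR adjusted p = 0.0459). Lower in run 1 were prss59.2 (-10.74), ctrb.1 (-6.44), ENSDARG00000087337 (-6.04), si:dkey-153m14.1 (-4.99) and APOD (ENSDARG00000060350, -4.05). For prss59.2, ctrb.1 and ENSDARG00000087337, with 0 to 3 reads in run 1, these fitted values depend on the prior count and are no bound. Of the genes called in opposite directions and lower in run 1, P4HB differed by -3.09, ENSDARG00000086304 by -3.18, ITGB1 (ENSDARG00000104484) by -2.42, ENSDARG00000101256 by -2.06 and syncripl by -1.90.

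The strand columns, which the main comparison does not use, were uneven by over 20 points for 150 genes in A_1 and 99 in Q_1, and for none in either embryo.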

How the results depend on the processing

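At equal cycles the number of calls ran from 7093 (genes without overlap, 17379 tested) to 9542 (1 fit over all groups) over the alternatives with all libraries, with DESeq2 at 8334, and no named gene changed direction past the threshold under any alternative run. Leaving out 1 library gave 5912 to 8518 calls, 2156 to 3735 higher and 3756 to 4783 lower. Run 2 gave 5572 to 10466 calls, 2205 to 4631 higher and 3367 to 5913 lower. Without the same-numbered library in both comparisons, 1589 to 1974 higher and 2833 to 3879 lower genes were held.

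The direct comparison of the sorted runs depended most on the settings. DESeq2 called 1041 genes, 722 higher and 319 lower, and the first strand column 1104, 621 higher and 483 lower. Leaving out 1 library, without the kit covariate, gave 331 to 4867 calls, 237 to 3042 higher and 94 to 1825 lower. The cause was not tested beyond the smaller number of samples in these fits.

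For the pairing by kit, the deviations of the RNAqueous libraries in sorted cells and embryos had a Pearson correlation of -0.0748 and a Spearman correlation of -0.118 over 20254 genes. With 1 library per kit in each group, these values cannot show whether a kit had a common effect in both. With kit as a replicate block the main comparison had 7931 calls, 3065 higher and 4866 lower. Without the replicate block the direct comparison had 1414 calls, 892 higher and 522 lower.

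Precision was limited by 2 libraries a group and by floors of 0.154 to 0.279 CPM.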
